A study of Mus musculus with 9 samples.

Results

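The genes described here encode the digestive hydrolases of the intestinal brush border: the disaccharidases sucrase-isomaltase (Sis), lactase (Lct), maltase-glucoamylase (Mgam) and trehalase (Treh), the peptidases aminopeptidase N (Anpep), dipeptidyl peptidase 4 (Dpp4), glutamyl aminopeptidase (Enpep) and neprilysin (Mme), and intestinal alkaline phosphatase (Alpi). They were chosen by name, through their Ensembl identifiers, and all 9 were found among the 31685 genes of the expression table. The RNA came from wild-type C57BL/6J male mice aged 6 to 8 weeks, in 3 groups of 3 mice sampled on day 3. Control mice had no treatment. The TAI group received a single 12 Gy dose of X-ray total abdominal irradiation (TAI), and the series text gives PBS as what irradiated mice received when they were not given antibody. The TAI/IVIg group received the same 12 Gy and 500 mg/kg of intravenous immunoglobulin (IVIg, pooled antibody) within an hour, repeated every 3 days, so that all TAI/IVIg mice were also irradiated. No group received IVIg without irradiation.

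Brush border hydrolases are made by absorptive enterocytes, the cells that line the villi, and sit in the apical membrane with their catalytic sites facing the gut lumen. They carry out the last step of digestion: disaccharidases split sugars such as sucrose, maltose, trehalose and lactose into monosaccharides, and peptidases trim peptides into amino acids and very short peptides that neighbouring transporters take up. Their transcripts are low in crypts and high on villi, and several vary along the length of the bowel. Lactase and trehalase are known as genes of the proximal and middle small intestine. Ileal enterocytes in contrast make the bile acid carrier Fabp6 and the bile acid importer Slc10a2.

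Values are FPKM, reads scaled to gene length and to the total of the library, so levels can be compared between genes. The libraries held 16278117 to 18238706 recovered reads, and the least covered of the 9 genes in any mouse was Treh, with 315 reads in control 3. The study describes the sequenced replicates as mice, which the labels do not state, and p-values measure the spread between these libraries. The labels also name the sample as jejunal epithelium, while the protocol has jejunal tissue. The enterocyte gene Vil1 (villin, the core protein of microvilli) stood at 794 to 1157 FPKM in the 9 mice, and the whole-wall genes were present too, with smooth muscle actin Acta2 at 44.2 to 304 FPKM. The duodenal genes Cybrd1, Slc40a1 and Pdx1 did not reach the filter for testing, 1 FPKM in 3 mice or more, and the pancreatic enzyme gene Pnlip was at 0 to 0.309 FPKM.

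The ileal genes went against the jejunal label. Fabp6 was at 7414.5, 8177 and 7326 FPKM in the control mice, which made it the gene with the third highest mean of the table in that group. It was at 1372, 1874 and 3529.5 FPKM in the TAI mice and at 1351, 208 and 229 FPKM in the TAI/IVIg mice. Slc10a2 was at 138, 64.9 and 110.4 FPKM in control mice, 75.5, 57.2 and 48.1 FPKM in TAI mice and 29.5, 23.1 and 11.0 FPKM in TAI/IVIg mice. Both fell in TAI/IVIg against control, Fabp6 by 4.25 and Slc10a2 by 2.28 on the log2 scale (limma, adjusted p = 0.00161 and 0.00208), and neither passed in TAI against control (adjusted p = 0.0549 and 0.158). The position along the bowel from which a sample was cut is not given, so it cannot be told apart from the treatment groups in any comparison with the control mice below. In whole tissue, a change in the share of enterocytes and a change in RNA per enterocyte, in either direction, cannot be told apart either.

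The 250 bases upstream of the RefSeq start sites of Lct, Treh and Sis are shown because Lct and Treh had the largest differences among the hydrolases and Sis lay on the opposite side of the control level. They are printed 5′ to 3′ on the strand of the gene, build GRCm38.p6, with capitals for matches on either strand to motifs of factors known to act on these genes. The letters searched were AGATAA and, as a second form of the GATA site, TGATAA, then CAAAGT for HNF4 and TTTAT for the CDX factors. The Lct window is chr1:128328319-128328568 on the minus strand, the Treh window is chr9:44672983-44673232 on the plus strand and the Sis window is chr3:72967864-72968113 on the minus strand.
Lct: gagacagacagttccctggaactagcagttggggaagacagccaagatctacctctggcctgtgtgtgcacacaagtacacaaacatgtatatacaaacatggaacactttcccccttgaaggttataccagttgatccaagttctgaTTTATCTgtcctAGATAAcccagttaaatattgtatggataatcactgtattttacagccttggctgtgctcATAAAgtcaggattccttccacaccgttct
Treh: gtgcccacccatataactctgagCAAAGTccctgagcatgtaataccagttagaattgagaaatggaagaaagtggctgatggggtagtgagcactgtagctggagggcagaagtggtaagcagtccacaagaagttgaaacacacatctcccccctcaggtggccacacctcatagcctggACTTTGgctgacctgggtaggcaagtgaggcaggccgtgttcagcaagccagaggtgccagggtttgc
Sis: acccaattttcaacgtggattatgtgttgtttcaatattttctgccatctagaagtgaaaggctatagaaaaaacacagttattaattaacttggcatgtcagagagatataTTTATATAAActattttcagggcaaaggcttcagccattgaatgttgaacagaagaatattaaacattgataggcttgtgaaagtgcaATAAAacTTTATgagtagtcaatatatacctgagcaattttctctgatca

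Lct had a pair of AGATAA matches, at -101 and -90 from the start site, of which the first overlapped a TTTAT match at -102, and a further TTTAT match at -30. Treh had a pair of CAAAGT matches at -227 and -68, and no GATA or CDX letters. Sis had 4 TTTAT matches, at -138, -133, -50 and -43. Over the 11 start-site windows of the 9 genes (300 bases each, Mme having 3), AGATAA was in Lct, Mgam and Dpp4, CAAAGT in Alpi, Mme and Treh, and TGATAA in none. The CDX letters were in 6 of these windows, those of Lct, Sis, Mgam, Alpi, Dpp4 and Enpep. Of 32851 promoters of the same length, 11.2% held AGATAA, 9.05% TGATAA, 14.4% CAAAGT and 40.0% TTTAT. These matches are letters in a window, and whether a factor binds them was not measured.

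Irradiation went with higher levels of 5 of the 9 hydrolase transcripts. In TAI against control, Lct, Treh, Mme, Alpi and Dpp4 passed the test as higher and none as lower, while 8.81% of the 13056 genes tested passed as higher and 26.1% as lower. In TAI/IVIg against control the same 5 genes and Mgam were higher, 6 in all, beside 9.06% of genes higher and 37.4% lower. The median log2 difference of the 9 genes was 0.79 in TAI against control and 0.86 in TAI/IVIg against control, where the medians over all genes tested were -0.23 and -0.39. With library medians set equal, 2159 genes were higher and 1823 lower in TAI against control, against 1150 and 3411 with FPKM as deposited. That scaling moved the median over all genes to 0.05. With FPKM as deposited, 8 of the 9 hydrolases, all but Sis, lay above the median over all genes in both comparisons. Setting library medians equal shifts every gene of a comparison by the same amount, so it could not change that count. With quantile normalization 7 of the 9 lay above the median, and Enpep lay below it as well as Sis.

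**Figure D1:**
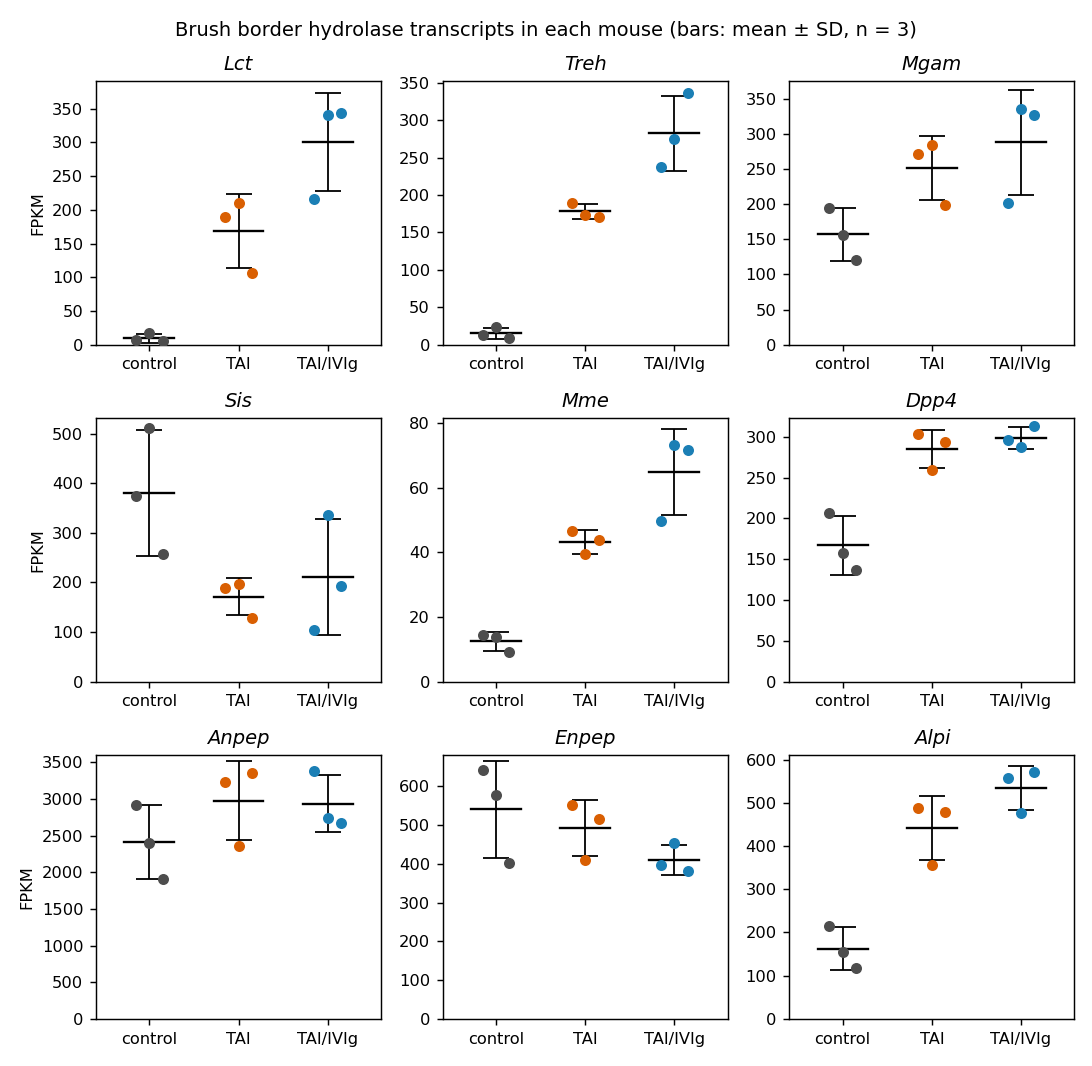
FPKM of the 9 brush border hydrolase genes (linear axis from 0) in each control, TAI and TAI/IVIg mouse, with a point per mouse and bars for the mean ± SD (n = 3 per group). Lct, Treh, Mme, Alpi and Dpp4 lie higher in all 6 irradiated mice than in any control mouse, and Sis lies lower in all 3 TAI mice.

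Lct (ENSMUSG00000026354, chromosome 1, 128284756 to 128328318, minus strand), which encodes the enzyme that splits milk sugar, showed the largest difference. It was at 6.84, 16.6 and 4.82 FPKM in the control mice, at 189.6, 210.2 and 106 FPKM in the TAI mice and at 216, 340.6 and 343 FPKM in the TAI/IVIg mice. The 3 groups did not overlap, with the TAI mice between the control and the TAI/IVIg mice. The level was 17.5-fold higher in TAI (log2 difference 4.13 ± 0.42, SE, adjusted p = 0.000507) and 31.7-fold higher in TAI/IVIg (4.99 ± 0.42, adjusted p = 0.000153), both on the log2(FPKM + 1) scale. By mean level Lct ranked 4768 among all genes in the control group and 255 and 134 in the TAI and TAI/IVIg groups.

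Treh (ENSMUSG00000032098, chromosome 9, 44673233 to 44686305, plus strand), a membrane-anchored enzyme for the fungal and insect sugar trehalose, followed the same order. Control mice had 12.9, 23.6 and 8.88 FPKM, TAI mice 189.5, 173.5 and 171 FPKM, and TAI/IVIg mice 237, 275 and 336 FPKM. The 3 groups did not overlap at any step. The difference from control was 11.9-fold in TAI (log2 difference 3.57 ± 0.29, SE, adjusted p = 0.000269) and 18.7-fold in TAI/IVIg (4.22 ± 0.29, adjusted p = 8.9e-05). The 3 TAI mice were close to each other for Treh (178 ± 9.96 FPKM, SD, n = 3), while Lct in the same mice spread more widely (169 ± 55.1 FPKM).

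Mgam (ENSMUSG00000068587, chromosome 6, 40628831 to 40769123, plus strand), which frees glucose from maltose and starch fragments, moved by less. It was at 195, 157 and 120.0 FPKM in control mice, 272, 284 and 199 FPKM in TAI mice and 201, 335 and 328 FPKM in TAI/IVIg mice. All irradiated mice were above all control mice, but TAI 3 and TAI/IVIg 1 were only just above control 1. It rose 1.81-fold in TAI/IVIg (log2 difference 0.86 ± 0.26, SE, adjusted p = 0.0245), a call that was lost without control 2, control 3, TAI/IVIg 2 or TAI/IVIg 3 (adjusted p = 0.058 to 0.0871). In TAI the log2 difference of 0.69 did not pass (adjusted p = 0.068), whereas it passed with library medians set equal (0.97, adjusted p = 0.0416).

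Sis (ENSMUSG00000027790, chromosome 3, 72888557 to 72967863, minus strand), the enzyme of sucrose and of branched starch fragments, was the disaccharidase with a lower level after irradiation. Control mice had 375, 510.2 and 257 FPKM and TAI mice 189, 196 and 129 FPKM, with no overlap. TAI/IVIg mice ran from 103 FPKM in mouse 1 to 194 in mouse 3 and 335 in mouse 2, and overlapped both other groups. The log2 difference of -1.12 ± 0.41 (SE) in TAI did not pass (adjusted p = 0.0631), nor did -0.95 ± 0.41 in TAI/IVIg (adjusted p = 0.0867). With a term for the replicate number, Sis in TAI passed as lower (limma, adjusted p = 0.0377). A fit with that term in the 6 control and TAI mice alone was added after seeing the data. There Sis passed as lower (limma, adjusted p = 0.00632) and Mgam as higher (adjusted p = 0.0178). Whether the replicate numbers pair mice is not known. Without TAI/IVIg 2, Sis passed as lower in TAI/IVIg as well (-1.37, adjusted p = 0.0174).

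The make-up of the disaccharidase transcripts differed between control and irradiated mice in every library. Sis made up 63.6% to 72.2% of the summed FPKM of the 4 disaccharidases in control mice, 21.3% to 22.7% in TAI mice and 13.7% to 26.1% in TAI/IVIg mice. Lct and Treh together were the small remainder in control mice, with Lct at 1.16% to 2.34% and Treh at 2.19% to 3.34%. In TAI mice Lct took 17.5% to 24.3% and Treh 20.1% to 28.3%, and in TAI/IVIg mice they took 26.5% to 28.6% and 21.4% to 31.3%. Mgam kept a more even share, 22.1% to 33.1% in control mice, 32.3% to 32.9% in TAI mice and 26.1% to 27.3% in TAI/IVIg mice. These shares are ratios within a library, so multiplying a library by a constant leaves them as they are, and they were not computed after quantile normalization, which moves genes unequally.

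**Figure D2:**
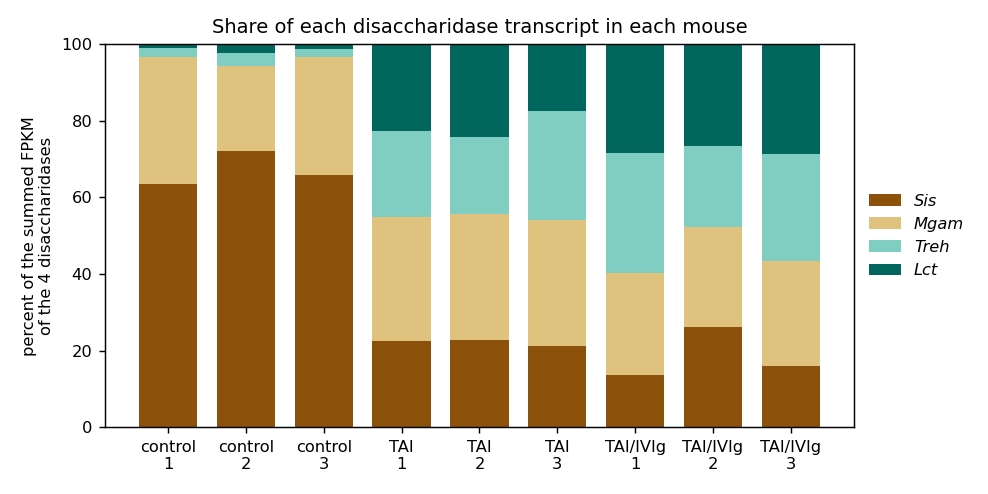
Stacked bars give the percent of the summed FPKM of the 4 disaccharidase genes that each gene made up, with a bar for each mouse. Sis fills 63.6% to 72.2% of the control bars and 13.7% to 26.1% of the irradiated bars, and Lct and Treh fill much of the rest in the irradiated bars.

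The disaccharidases and the ileal genes can be read side by side in each mouse. Among the 6 irradiated mice, TAI/IVIg 2 and TAI/IVIg 3 had the least Fabp6 (208 and 229 FPKM) and the most Lct (340.6 and 343 FPKM). TAI 3 had the most Fabp6 of the irradiated mice (3529.5 FPKM) and the least Lct (106 FPKM). The order did not hold throughout, since TAI 2 had more of both Fabp6 and Lct than TAI 1 (Lct at 210.2 against 189.6 FPKM). Treh was lowest of the irradiated mice in TAI 3 (171 FPKM) and highest in TAI/IVIg 3 (336 FPKM). Sis was highest of the irradiated mice in TAI/IVIg 2 (335 FPKM), the mouse with the least Fabp6, and lowest in TAI/IVIg 1 (103 FPKM). Slc10a2 gave another order, since TAI 3 had the least of the 3 TAI mice (48.1 FPKM) and TAI 1 the most (75.5 FPKM), while among the TAI/IVIg mice it was at 29.5 FPKM in mouse 1, 23.1 in mouse 2 and 11.0 in mouse 3. Among the control mice Fabp6 differed little, from 7326 to 8177 FPKM, while Lct ran from 4.82 to 16.6 FPKM. The part of bowel position in the Lct, Treh and Sis differences was not tested.

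**Figure D3:**
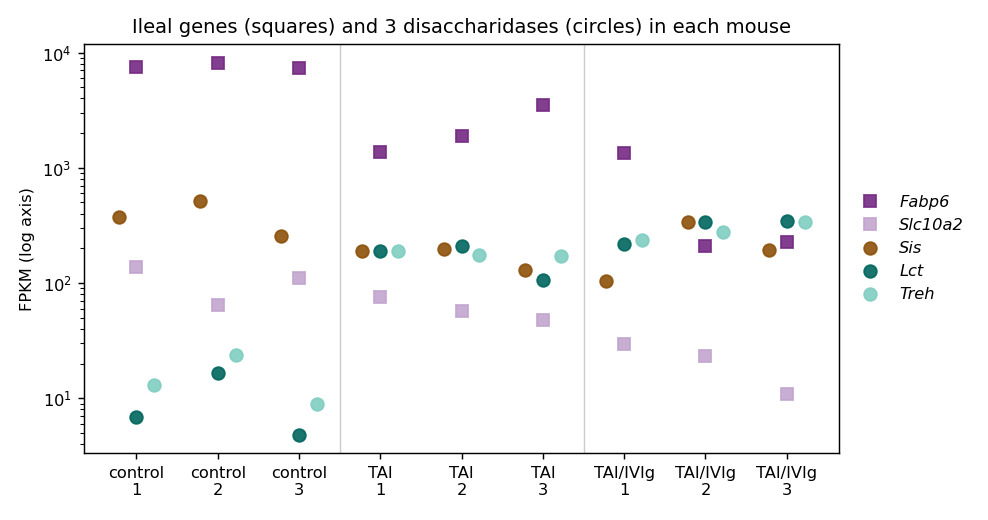
FPKM on a log axis of the ileal genes Fabp6 and Slc10a2 (squares) and of Sis, Lct and Treh (circles, shifted sideways for legibility) in each of the 9 mice. Fabp6 is at 7326 to 8177 FPKM in the control mice and at 208 to 3529.5 FPKM in the irradiated mice, and Lct is at 4.82 to 16.6 FPKM in the control mice and at 106 to 343 FPKM in the irradiated mice.

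The peptidases divided into a pair that rose and a pair that did not pass. Mme (ENSMUSG00000027820, chromosome 3, 63241537 to 63386030, plus strand), a zinc endopeptidase, was the peptidase with the lowest level. It was at 14.6, 13.8 and 9.16 FPKM in control mice, 46.6, 39.4 and 43.7 FPKM in TAI mice and 49.6, 73.3 and 71.5 FPKM in TAI/IVIg mice. No groups overlapped, and the level was 3.33-fold higher in TAI (log2 difference 1.73 ± 0.21, SE, adjusted p = 0.000956) and 4.89-fold higher in TAI/IVIg (2.29 ± 0.21, adjusted p = 0.000196).

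Dpp4 (ENSMUSG00000035000, chromosome 2, 62330073 to 62412231, minus strand), which removes dipeptides that end in proline or alanine and also inactivates incretin hormones, was at 206, 158 and 136 FPKM in control mice. It reached 303, 259 and 294 FPKM in TAI mice and 296, 287 and 314 FPKM in TAI/IVIg mice. All 6 irradiated mice were above the control mice, and the irradiated groups overlapped each other. Dpp4 rose 1.73-fold in TAI (log2 difference 0.79 ± 0.17, SE, adjusted p = 0.00844) and 1.81-fold in TAI/IVIg (0.86 ± 0.17, adjusted p = 0.00389). Its exons share 232 bases with the antisense gene Gm13561, which was at 0.784 to 2.05 FPKM, and whether reads were counted by strand is not given.

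Anpep (ENSMUSG00000039062, chromosome 7, 79821803 to 79861059, minus strand), an exopeptidase that takes neutral amino acids from peptide ends, was by far the most abundant of the hydrolase transcripts. It was at 2922, 2399 and 1909 FPKM in control mice, 3227, 2364 and 3349.5 FPKM in TAI mice and 3384, 2748 and 2675.5 FPKM in TAI/IVIg mice. The groups overlapped. Its log2 differences from control were 0.31 (95% interval -0.23 to 0.85, adjusted p = 0.328) in TAI and 0.30 (-0.24 to 0.83, adjusted p = 0.318) in TAI/IVIg, intervals that leave room for changes of either sign.

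Enpep (ENSMUSG00000028024, chromosome 3, 129269175 to 129332720, minus strand), which takes acidic residues from peptide ends and cleaves angiotensin peptides, was at 642, 579 and 401 FPKM in control mice. It was at 551, 410.3 and 516 FPKM in TAI mice and 397, 454 and 381 FPKM in TAI/IVIg mice. The groups overlapped in both comparisons. Its log2 differences were -0.12 (95% interval -0.59 to 0.35, adjusted p = 0.683) in TAI and -0.37 (-0.84 to 0.10, adjusted p = 0.165) in TAI/IVIg, and both were positive with library medians set equal (0.17 and 0.12). Without control 3, Enpep passed as lower in TAI/IVIg (-0.57, adjusted p = 0.0432).

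Alpi (ENSMUSG00000079440, chromosome 1, 87098002 to 87101606, minus strand), a phosphatase that also removes phosphate from bacterial lipopolysaccharide, rose in both irradiated groups. It was at 215, 154 and 117 FPKM in control mice, 489, 355 and 479.6 FPKM in TAI mice and 558, 477 and 571 FPKM in TAI/IVIg mice. Every irradiated mouse was above every control mouse. The level was 2.77-fold higher in TAI (log2 difference 1.47 ± 0.23, SE, adjusted p = 0.00264) and 3.38-fold higher in TAI/IVIg (1.76 ± 0.23, adjusted p = 0.000862). Akp3, the closely related alkaline phosphatase gene with which reads could be shared, was at 0 to 0.561 FPKM.

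**Figure D4:**
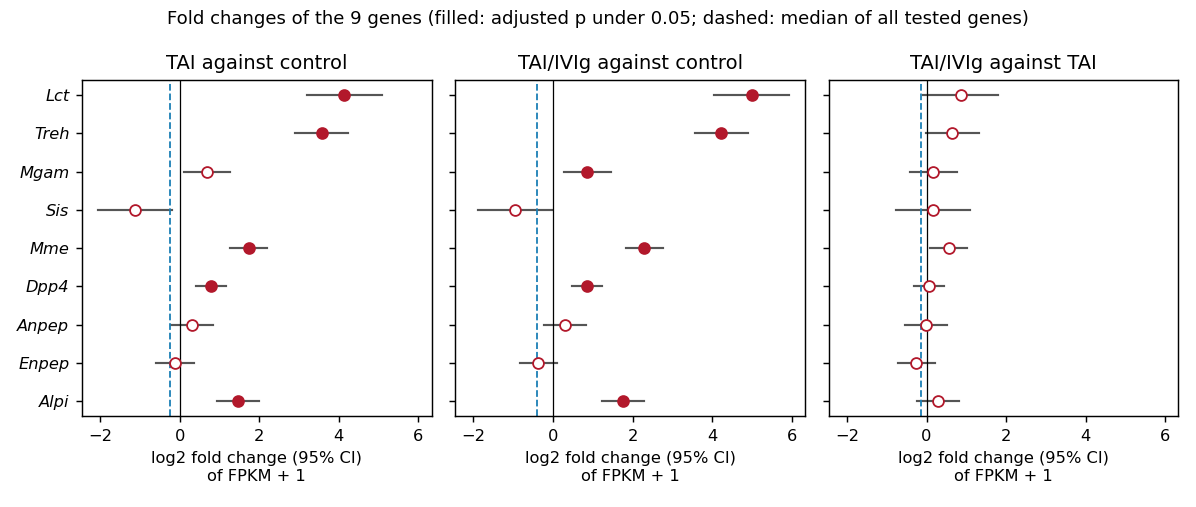
Log2 fold changes of FPKM + 1 (x axis) of the 9 genes with 95% confidence intervals in the 3 comparisons, filled where the adjusted p was under 0.05, with the median over all genes tested as a dashed line. In TAI/IVIg against TAI no symbol is filled, and Lct, Treh and Mme have the highest values there.

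Between the irradiated groups, none of the 9 genes passed. In TAI/IVIg against TAI limma called 0 of the 13056 genes, 0% in all, and an unadjusted p under 0.05 was reached by 214 genes as higher (1.64%) and 1466 as lower (11.2%). Lct, Treh and Mme were higher in all TAI/IVIg mice than in any TAI mouse, as were 3.09% of all genes, while 16.1% of genes were lower without overlap. The log2 differences were 0.85 for Lct (95% interval -0.09 to 1.80, adjusted p = 0.412), 0.65 for Treh (-0.02 to 1.31, adjusted p = 0.391) and 0.56 for Mme (0.09 to 1.02, adjusted p = 0.363). Mme was the only hydrolase with an unadjusted p under 0.05. The other 6 genes overlapped, with log2 differences from -0.26 for Enpep to 0.29 for Alpi.

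The TAI/IVIg mice were not alike. Mouse 1 had less Lct (216 against 340.6 and 343 FPKM), Mme (49.6 against 73.3 and 71.5 FPKM), Mgam (201 against 335 and 328 FPKM) and Sis (103 against 335 and 194 FPKM) than mice 2 and 3. Treh was lower in mouse 1 too (237 against 275 and 336 FPKM). Anpep was higher there (3384 against 2748 and 2675.5 FPKM), and Dpp4, Enpep and Alpi lay between mice 2 and 3. Fabp6 was higher in mouse 1 (1351 FPKM) than in mice 2 and 3 (208 and 229 FPKM), and the enterocyte gene Fabp1, a fatty acid carrier, was lower (1477 against 4869.8 and 4182 FPKM). The bowel wall marker Acta2 was also highest in mouse 1, at 218 FPKM, with 111 in mouse 2 and 44.2 in mouse 3. The part of the bowel wall in the differences between the irradiated groups was not tested.

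In order of mean level, Anpep stood first in every group, at 2409.8 ± 507 FPKM (SD, n = 3) in control mice, 2980.1 ± 537 in TAI mice and 2936 ± 389.6 in TAI/IVIg mice. In control mice Enpep and Sis followed with overlapping ranges, then Dpp4, Alpi and Mgam, which also overlapped in that order, and last Treh, Mme and Lct, which overlapped at 4.82 to 23.6 FPKM. In TAI mice the order was Anpep, Enpep, Alpi, Dpp4, Mgam, Treh, Sis, Lct and Mme. The range of Enpep overlapped that of Alpi there, although Enpep was above Alpi in each of the 3 mice, and the ranges of Dpp4 and Mgam, of Treh and Sis and of Sis and Lct overlapped too. In TAI/IVIg mice Alpi was second, with a range above that of Enpep, and Lct, Dpp4, Mgam, Treh and Sis formed a run of overlapping neighbours between 103 and 343 FPKM. The ratio of the highest to the lowest mean was 256 in control mice, 68.9 in TAI mice and 45.3 in TAI/IVIg mice.

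Taken as a set, the 9 genes drew 1.44% to 2.23% of all recovered reads in control mice, 2.12% to 2.58% in TAI mice and 2.47% to 2.66% in TAI/IVIg mice. Their summed FPKM was 2963 to 4590.0 in control, 4292 to 5456 in TAI and 5213 to 5442 in TAI/IVIg mice. Anpep alone made up 51.3% to 64.4% of that sum in the 9 mice. Enpep made up 13.5% to 14.4% of it in control mice, 9.56% to 10.1% in TAI mice and 7.30% to 8.53% in TAI/IVIg mice, so its share was lower in each irradiated mouse although its FPKM overlapped.

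Each hydrolase was also set against Vil1 in the same mouse. Vil1 was at 1157, 1029.8 and 794 FPKM in control mice, 1034, 916 and 908 FPKM in TAI mice and 1042.5, 1088 and 918 FPKM in TAI/IVIg mice, and did not pass in either comparison with control (adjusted p = 0.858 and 0.846). The log2 ratio to Vil1 was higher in all TAI mice than in any control mouse for 7 of the 9 genes, Anpep and Mgam included, lower for Sis and overlapping for Enpep. Of the 13056 genes tested, 13.1% had a ratio to Vil1 that was higher without overlap in TAI and 23.1% a lower one. In TAI/IVIg mice it was higher for the same 7 genes, by 0.25 for Anpep up to 5.12 for Lct, and lower for Enpep (-0.42) and Sis, beside 8.52% of genes higher and 38.1% lower. For Anpep the groups were barely apart, since control 1 and TAI/IVIg 2 were both at 1.337 as rounded. The lowest TAI ratio of Anpep was 1.368. Ratios with their groups apart are descriptions and were not tested.

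Of 19 genes for other hydrolases of the brush border, 15 were above the filter. In each comparison with control 8 of these passed as higher, 0 as lower and 7 did not pass. Their median log2 difference was 0.79 in TAI and 0.94 in TAI/IVIg, beside -0.23 and -0.39 for all genes tested. The shares of all genes tested that passed were 8.81% higher and 26.1% lower in TAI, and 9.06% and 37.4% in TAI/IVIg. Enpp3, a nucleotide pyrophosphatase, was at 4.08 to 9.19 FPKM in control mice, 133 to 173 in TAI mice and 180.3 to 268 in TAI/IVIg mice (log2 difference 4.53 and 5.06, adjusted p = 9.2e-05 and 4.3e-05). Mep1a, the alpha subunit of the metalloprotease meprin, was at 27.8 to 38.6 FPKM in control, 342 to 528 in TAI and 244 to 458 in TAI/IVIg mice (3.68 and 3.17, adjusted p = 0.000192 and 0.000153). Nt5e, which frees adenosine from AMP, was at 1.29 to 2.69 FPKM in control mice and 24.7 to 72.7 FPKM in the irradiated mice (4.05 and 4.08, adjusted p = 0.000487 and 0.000304). Among the other genes that passed in TAI were Ace, Enpp7, Asah2 and Plb1, while Mep1b, the partner of Mep1a, was at 456 to 680.4 FPKM in control and 574 to 616 FPKM in TAI mice and did not pass. Enteropeptidase (Tmprss15) and glutamate carboxypeptidase (Folh1), 2 of the 4 genes under the filter, were close to 0 in every mouse.

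The products of these enzymes are taken up by apical transporters. Of 8 transporter genes, 3 passed as higher in TAI and 4 in TAI/IVIg, and none as lower. The shares of all genes tested were 8.81% and 9.06% higher, and 26.1% and 37.4% lower. Slc15a1, the importer of di- and tripeptides, was at 61.6 to 103 FPKM in control, 152 to 261 in TAI and 227 to 247 in TAI/IVIg mice (log2 difference 1.29 and 1.53, adjusted p = 0.00443 and 0.00146). Slc3a1, a subunit of the exchanger of basic amino acids and cystine, rose by 1.00 in TAI and 0.96 in TAI/IVIg (adjusted p = 0.00803 and 0.0064), and Slc6a19, a carrier of neutral amino acids, by 1.02 and 1.07 (adjusted p = 0.0194 and 0.0121). Slc5a1, the sodium-coupled importer of glucose and galactose, was at 267 to 442 FPKM in control, 503 to 549 in TAI and 501 to 846 in TAI/IVIg mice, and passed in TAI/IVIg alone (0.97, adjusted p = 0.0116, against 0.57 and adjusted p = 0.101 in TAI). For Slc5a1 the TAI/IVIg against TAI difference of 0.41 did not pass (adjusted p = 0.476).

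Genes of the microvillus itself were split. Of 19 tested, 8 were higher and 1 lower in TAI, and 9 higher and 1 lower in TAI/IVIg, with medians of 0.47 and 0.52. Beside them, 8.81% of all genes tested were higher and 26.1% lower in TAI, and 9.06% and 37.4% in TAI/IVIg. Cdhr2, a protocadherin of the links between microvillus tips, was at 225 to 353 FPKM in control and 647 to 821 FPKM in irradiated mice (log2 difference 1.36 and 1.38, adjusted p = 0.00177 and 0.00108). Pdzk1, a scaffold of apical membrane proteins, rose by 1.49 and 1.67 (adjusted p = 0.00182 and 0.000783). The actin regulators Eps8 and Cobl rose too, Eps8 by 1.07 in TAI and Cobl by 0.94 in TAI/IVIg (adjusted p = 0.00443 and 0.00366). Anks4b, which belongs to the same tip-link complex as Cdhr2, fell by 0.70 in TAI and by 0.48 in TAI/IVIg (adjusted p = 0.0103 and 0.032), calls that were lost with library medians set equal, where the values were -0.41 and 0.01.

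**Figure D5:**
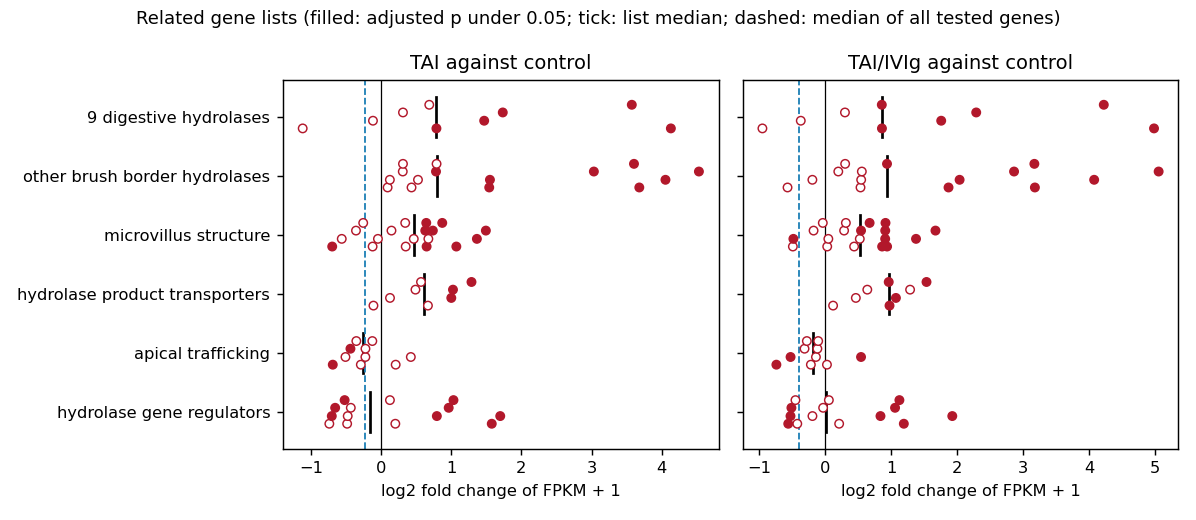
Log2 fold changes of FPKM + 1 of each tested gene of 6 lists in TAI against control and TAI/IVIg against control, filled where the adjusted p was under 0.05, with a tick for the median of the list and a dashed line for the median over all genes tested. The medians of the 9 digestive hydrolases (0.79 and 0.86) and of the other brush border hydrolases (0.79 and 0.94) lie to the right of 0, and those of apical trafficking (-0.26 and -0.18) to the left, where library medians set equal put them at 0.03 and 0.31.

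Of 10 genes listed by hand under apical trafficking, a list that also holds the Golgi gene Slc35a1, 8 did not pass in TAI and 7 did not pass in TAI/IVIg. In TAI 0 were higher and 2 lower, and in TAI/IVIg 1 was higher and 2 lower, with medians of -0.26 and -0.18 beside -0.23 and -0.39 for all genes tested. Among all genes tested, 8.81% were higher and 26.1% lower in TAI, and 9.06% and 37.4% in TAI/IVIg. Mal2, a membrane protein of transcytosis, fell by 0.69 and 0.74 (adjusted p = 0.00408 and 0.002). Rab8a, a GTPase of apical delivery, fell by 0.44 in TAI (adjusted p = 0.0183), and Slc35a1, the Golgi importer of CMP-sialic acid, fell by 0.53 in TAI/IVIg (adjusted p = 0.015). Stx3, the syntaxin of the apical membrane, rose by 0.54 in TAI/IVIg (adjusted p = 0.0219). With library medians set equal the counts turned round, with 2 higher and 0 lower in TAI (Stx3 and Mal, adjusted p = 0.0492 and 0.0489) and 3 higher and 0 lower in TAI/IVIg (Stx3, Mal and Vti1a, adjusted p = 0.00945, 0.0361 and 0.0274).

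The transcription factors listed by hand as hydrolase gene regulators did not move together. Whether each of them acts on the 9 genes was not tested. Of 14 tested, 5 were higher and 3 lower in each comparison with control. Over all genes tested, 8.81% were higher and 26.1% lower in TAI, and 9.06% and 37.4% in TAI/IVIg. Creb3l3, a factor of lipid and apolipoprotein genes, was at 68.2 to 108 FPKM in control, 260.3 to 277 in TAI and 271 to 364 in TAI/IVIg mice (log2 difference 1.70 and 1.93, adjusted p = 0.000777 and 0.000304). Gata6 rose by 1.03 and 1.12 (adjusted p = 0.00182 and 0.000844) and Prdm1, a factor of the postnatal maturation of the gut, by 1.58 and 1.19 (adjusted p = 0.00993 and 0.0222). Klf4, a factor of differentiated epithelium, rose by 1.06 in TAI/IVIg (adjusted p = 0.00509).

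The CDX factors, which act on Sis, were lower with FPKM as deposited. Cdx1 was at 52.2 to 64.3 FPKM in control mice, 29.7 to 39.8 in TAI mice and 35.0 to 46.2 in TAI/IVIg mice, and Cdx2 at 63.8 to 83.5, 43.1 to 48.3 and 45.4 to 70.4 FPKM. Cdx1 fell by 0.70 and 0.53 (adjusted p = 0.0122 and 0.0285), and Cdx2 fell by 0.66 in TAI (adjusted p = 0.0236) and was at -0.45 in TAI/IVIg (adjusted p = 0.0695). Klf5 fell by 0.52 and 0.51 (adjusted p = 0.0238 and 0.019), and Isx by 0.56 in TAI/IVIg (adjusted p = 0.0438). With library medians set equal none of Cdx1, Cdx2, Klf5 and Isx passed, and Cdx2 in TAI/IVIg was at 0.04. Hnf4a (171 to 235 FPKM) and Gata4 (11.1 to 22.6 FPKM), which act on several of the 9 genes and on Lct among them, did not pass in any comparison.

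Across the 9 mice the hydrolases fell into a tight group and a remainder. The Pearson correlation of log2(FPKM + 1) over the 9 mice, a description that group differences dominate, was 0.99 between Lct and Treh, 0.98 between Treh and Mme and 0.99 between Dpp4 and Alpi. Sis was at -0.54 with Lct and -0.60 with Treh, and Enpep at -0.44 and -0.42. Outside the lists, the genes closest to the mean standardized profile of the 9 hydrolases included Rab1a (r = 0.98), Igsf3 (0.97), Rdh9 (0.96) and Kalrn (0.96), each over 9 mice and among 12912 genes. Rab1a is a GTPase of transport from the endoplasmic reticulum to the Golgi, Igsf3 an immunoglobulin-domain membrane protein, Rdh9 a retinol dehydrogenase and Kalrn a guanine nucleotide exchange factor. Rab1a was at 96.7 to 119 FPKM in control, 128 to 132 in TAI and 133 to 143 in TAI/IVIg mice.

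Markers of enterocytes and of dividing cells differed from control in both irradiated groups. As a background for the counts below, 8.81% of all genes tested passed as higher and 26.1% as lower in TAI against control. In TAI/IVIg against control these shares were 9.06% and 37.4%. The summed FPKM of 9 enterocyte markers was 13900 to 22120 in control, 32470 to 51920 in TAI and 46300 to 51770 in TAI/IVIg mice, and 6 and 7 of the 9 passed as higher in the comparisons with control. All 6 proliferation markers fell in both, with sums of 47.7 to 107 FPKM in control, 20.3 to 25.96 in TAI and 16.4 to 25.5 in TAI/IVIg mice. Goblet cell markers summed to 2310 to 3099 FPKM in control, 3575 to 4666 in TAI and 2044 to 3498 in TAI/IVIg mice, and of 7 tested 3 passed as higher and 1 as lower in TAI, and 3 as lower in TAI/IVIg (1 higher and 1 lower with library medians set equal). Paneth cell markers summed to 811.5 to 3991, 1463 to 4054 and 118 to 1098 FPKM, and of 6 tested 0 passed in TAI and 1, as lower, in TAI/IVIg. Smooth muscle markers summed to 447 to 581 FPKM in control, 494 to 708 in TAI and 104 to 510 in TAI/IVIg mice, and none of the 5 tested passed in any comparison. Fibroblast markers summed to 59.5 to 82.95, 65.2 to 83.9 and 18.1 to 42.1 FPKM, and of 5 tested 0 passed in TAI and 3, as lower, in TAI/IVIg (1 with library medians set equal). An unadjusted p under 0.05 in limma was reached by 0 Paneth cell, smooth muscle or fibroblast markers in TAI against control. In TAI/IVIg against control it was reached by 3 Paneth cell, 2 smooth muscle and 4 fibroblast markers. In TAI/IVIg against TAI it was reached by 6 Paneth cell, 5 smooth muscle, 5 fibroblast and 7 goblet cell markers. All of these were lower, as were 11.2% of all genes tested at that p. The part of these cell types in the hydrolase differences was not tested.

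Lymphoid tissue was uneven among the mice of each group. The B cell gene Cd79a was at 142 FPKM in control 3 and 18.5 FPKM in control 1. It was at 29.9 FPKM in TAI 3, at 31.4 FPKM in TAI/IVIg 2, and at 0.801 to 1.48 FPKM in the remaining 5 mice. Summed B and plasma cell markers ran from 158 to 436 FPKM in control, 119 to 156 in TAI and 106 to 176 in TAI/IVIg mice. Control 3 also had the lowest level of the 3 control mice for each of the 9 hydrolases. Without control 3, the calls of Lct, Treh, Mme, Alpi and Dpp4 in TAI remained, 5 in all. Summed T cell markers were at 38.6 to 56.0 FPKM in control, 35.6 to 76.4 in TAI and 43.3 to 77.4 in TAI/IVIg mice, myeloid markers at 68.7 to 233, 48.8 to 206 and 27.6 to 212 FPKM, and endothelial markers at 11.1 to 18.8, 15.6 to 22.8 and 7.54 to 14.2 FPKM. Enteroendocrine markers were at 88.4 to 107, 66.7 to 102 and 78.8 to 110.1 FPKM, tuft cell markers at 3.98 to 6.74 FPKM in all 9 mice, and stem cell markers, of which Lgr5 was under the filter, at 22.5 to 80.1, 20.9 to 28.5 and 21.0 to 24.8 FPKM. Of 6 enteroendocrine markers tested, 2 passed as lower in each comparison with control and 1 as higher in TAI/IVIg. Of 3 stem cell markers tested, 1 passed as higher and 1 as lower in each. Of 5 myeloid markers tested, 1 passed as higher and 1 as lower in TAI, and 1 as lower in TAI/IVIg. Beside them, 8.81% of all genes tested were higher and 26.1% lower in TAI, and 9.06% and 37.4% in TAI/IVIg.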

How the data were processed

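Jejunal RNA was sequenced from 9 mice, 3 each in the control, TAI and TAI/IVIg groups, with group and number taken from the labels. The authors deposited FPKM values for 31685 genes, a column per mouse (0 columns were left out), and the submitters' processing notes name FastQC, Trimmomatic, STAR, featureCounts, DESeq2 and the builds mm10 and GRCm38, without versions or roles. Strandedness and annotation are not given in the sources used here. Once scaled by a factor per library, the FPKM values of a gene were whole multiples of a step of that gene. The smallest such whole numbers were taken as reads (within 0.001), which worked for 100% of genes and gave 16278117 to 18238706 per library. A gene at 0 in all mice or above 0 in a single mouse meets this in any case. Gene lengths cancel in comparisons of a gene between mice. Symbols were paired with 31146 identifiers.

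FPKM values were taken as log2(FPKM + 1), with a pseudocount of 1, and modelled by limma 3.58.1 (R 4.3.3) over the 9 mice, using one mean per group and a trended empirical Bayes step. The 13056 genes that reached 1 FPKM in 3 mice or more were tested, Benjamini-Hochberg adjusted within each comparison and called at an adjusted p under 0.05. The fit was tested on simulated data. As a check of pairing, each mouse's deviation from its group mean was correlated between same-numbered mice. It gave 0.271, 0.241 and 0.308 for control with TAI and -0.296 to 0.201 for TAI/IVIg with either. Differently numbered mice were not compared, so these values cannot decide whether the numbers pair mice. No source says what the numbers stand for. Gene coordinates are from GENCODE vM21 and start-site windows (all 9 genes matched) from RefSeq, both GRCm38. Lists were written by hand. The members and lists were chosen with earlier results of these data known. Named genes were the 9 members, up to 3 genes per list, comparison and direction with the smallest adjusted p, Vil1, Hnf4a, Cdx2, Gata4, the 5 genes of most similar pattern, and defining markers. Some items named by this rule are not reported here. Other genes (Gm13561, Akp3, Fabp1, Ace, Enpp7, Asah2, Plb1, Mep1b, Folh1, Tmprss15, Mal, Vti1a) were added after their values were seen. Alternatives were quantile normalization, library medians set equal, a filter at a mean of 5 FPKM or none, 0.1 as pseudocount, only the 6 mice compared, a replicate block, no trend, voom with library sizes by total or by median ratio, each mouse left out, and, added after seeing the data, a replicate block in the control and TAI mice alone.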

Additional observations from a re-analysis of the deposited data

How the results depend on the processing

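Lct, Treh, Mme, Alpi and Dpp4 passed as higher in TAI and in TAI/IVIg against control under every alternative run, and the hydrolases called higher numbered 5 to 6 in each of these comparisons. In TAI, the count of hydrolases called lower went from 0 to 1, Sis, with the replicate block, with the block in control and TAI mice alone, with only the 6 mice compared and without TAI/IVIg 1 or TAI/IVIg 2, and ranged from 0 to 1 over the mice left out. In TAI/IVIg it ranged from 0 to 1 as well, the lower gene being Enpep without control 3 and Sis without TAI/IVIg 2. The replicate block changed no other call of a hydrolase in the fit of 9 mice. In TAI/IVIg against TAI no hydrolase passed under any alternative, and the genes called lower went from 0 to 3 with the replicate block and to 4 with no filter.

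Mgam changed calls most often. In TAI against control it passed with quantile normalization (0.84), median-ratio voom (0.98) and without control 1 or TAI/IVIg 1, and in TAI/IVIg it was lost with no filter (0.86, adjusted p = 0.0596). Enpep turned positive with library medians set equal (0.17 in TAI and 0.12 in TAI/IVIg) and with median-ratio voom (0.18 and 0.10), and its log2 difference in TAI ranged from -0.32 to 0.021 over the mice left out. In TAI/IVIg against TAI, Anpep turned to 0.19 with library medians set equal and 0.17 with median-ratio voom, and ranged from -0.17 to 0.08 over the mice left out, and Sis ranged from -0.25 to 0.60. The causes were not tested. With library medians set equal, TAI/IVIg against control gave 2880 higher and 1894 lower genes, where FPKM as deposited gave 1183 and 4880, and the transporters called higher in TAI/IVIg rose from 4 to 7. Of the 5 genes of most similar pattern, 1 stayed in the first 5 by Spearman correlation. With 3 mice per group, small differences such as those of Anpep and Enpep could not be resolved.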
